A study of Mus musculus with 6 samples.

Results

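The 10 genes described here make, bind or break down hyaluronan, and they were found by symbol among the 31055 features counted in single cells of the mouse aortic root and ascending aorta. They are the synthases Has1, Has2 and Has3, the enzyme Uap1, the hyaluronan-binding or cross-linking proteins Tnfaip6, Ptx3 and Hapln1, the receptor Cd44 and the hyaluronidases Hyal1 and Hyal2. The set was chosen by its measured values, the UMI counts of these genes in the same cells as seen in an earlier analysis, so the levels are given as a description, with no test between groups of cells. Hyaluronan is a very long sugar chain that the synthases extend at the plasma membrane and push directly into the matrix, where it binds water and gives soft, hydrated tissue its volume. The chain alternates glucuronic acid and N-acetylglucosamine, so a cell that makes it needs both sugars as UDP-linked donors. Proteins that cross-link it, proteoglycans that attach to it and receptors that bind it decide whether it forms a pericellular coat, a stable matrix or a surface for leukocytes to adhere to.

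The study asked how the smooth muscle cells of the aorta differ by position in Loeys-Dietz syndrome (LDS), a heritable aneurysm disorder caused by variants of TGF-beta signaling genes. Aortic tissue from the root to the arch was taken from 6 female mice of 16 weeks on a 129SVE background, 4 controls (CTL, Tgfbr1+/+) and 2 LDS mice (Tgfbr1M318R/+). Of the controls, 2 carried Wnt2CRE and the EGFP-L10a reporter, in which the Cre driver marks cells of the cardiac neural crest lineage, and all other mice are listed without the reporter. The tissue of each mouse was digested with collagenase, elastase and DNase, viable cells were sorted, and 1 10x Genomics 3' library was made per mouse. Each unique molecular identifier (UMI) stands for 1 captured transcript whatever the length of the gene, and CPM below is a gene's share of all UMIs in a group of cells, scaled alike in every group.

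Barcodes end in a number that marks 1 of 6 libraries, but no source used here ties a number to a mouse, so control and LDS mice were not compared and the libraries were not treated as replicates of 1 condition. Each library's value is given, or the median, the range and the number of libraries in 1 direction. Of 30716 barcodes, 24972 passed the filter, 1863 to 6395 per library, with 18218282 to 38105145 UMIs per library and a median of 5572 to 9838 UMIs per cell. Only 76 of the kept barcode sequences occurred in more than 1 library. Clusters with fibroblast markers held 13664 cells (54.7%), those with vascular smooth muscle cell (VSMC) markers 10257 (41.1%), those with endothelial markers 505 and those with leukocyte markers 442, and 104 cells stayed unnamed. The summed level of the 7 VSMC markers was 61040 to 67850 CPM in VSMC-like and 1409 to 5818 CPM in fibroblast-like cells. The 7 fibroblast markers reached 23760 to 28060 CPM in fibroblast-like and 800 to 2402 CPM in VSMC-like cells.

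Most transcripts of Has1, Has2, Tnfaip6, Ptx3 and Uap1 came from fibroblast-like cells. Of 19149 Has1 UMIs in all cells, 98.3% were in fibroblast-like cells, as were 98.3% of 2022 Has2 UMIs, 97.5% of 21125 Tnfaip6 UMIs, 97.2% of 14994 Ptx3 UMIs and 91.3% of 39429 Uap1 UMIs. The receptor and the hyaluronidases were spread differently. Fibroblast-like cells held 52.1% of 6451 Cd44 UMIs and 45.9% of 1713 Hyal2 UMIs, and VSMC-like cells held 60.7% of 1165 Hyal1 UMIs and 69.9% of 73 Has3 UMIs. Compared with VSMC-like cells of the same library, 7 of the 10 genes were higher in fibroblast-like cells in all 6 libraries, 2 were lower in all 6 and 1 was mixed. Over the 8705 genes with at least 10 CPM in either class, 38.1% were higher and 34.6% lower in fibroblast-like cells in all 6 libraries, and 6 of the 10 genes passed that limit.

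**Figure D1:**
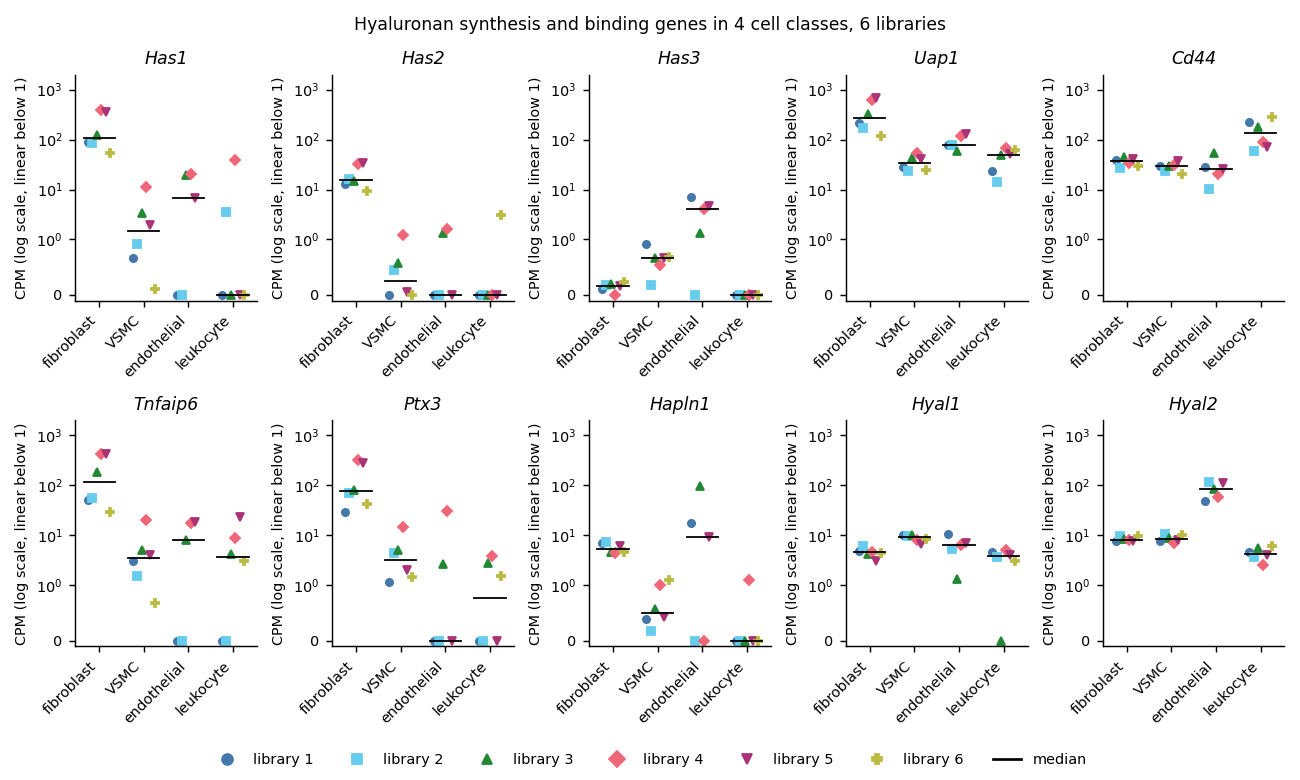
Level of each gene in CPM (vertical axis, logarithmic above 1 and linear below) in the 4 cell classes (horizontal axis), with 1 point per library with at least 20 cells of the class and a bar at the median. Has1 was at 54.6 to 384 CPM in fibroblast-like and 0.114 to 11.0 CPM in VSMC-like cells, while the points of Cd44 in these 2 classes lay between 20.7 and 44.0 CPM and Hyal2 was highest in endothelial cells.

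The promoter sequence just before the annotated transcription start is shown for Has1, Tnfaip6 and Ptx3, because all 3 were higher in the Ccl7 subtype of fibroblasts described further on and had their highest values in the same 2 libraries. RefSeq promoters of build GRCm38.p6 were at hand for 8 of the 10 genes, Has2 and Has3 not among them. Each window was shortened to the bases before every annotated start of its gene, and capitals mark matches to the AP-1 motif (TGANTCA), the cyclic AMP response element (CRE, TGACGTCA) or the NF-kB motif, on either strand.
Has1, chr17:17855206-17855438, minus strand: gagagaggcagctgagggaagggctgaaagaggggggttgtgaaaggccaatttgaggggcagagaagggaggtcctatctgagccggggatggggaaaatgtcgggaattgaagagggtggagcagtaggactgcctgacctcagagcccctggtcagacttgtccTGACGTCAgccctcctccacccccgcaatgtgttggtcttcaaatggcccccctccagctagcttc
Tnfaip6, chr2:52037863-52038008, plus strand: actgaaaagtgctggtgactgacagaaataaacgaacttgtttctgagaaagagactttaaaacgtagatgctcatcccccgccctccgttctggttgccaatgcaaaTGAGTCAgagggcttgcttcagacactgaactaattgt
Ptx3, chr3:66219637-66219886, plus strand: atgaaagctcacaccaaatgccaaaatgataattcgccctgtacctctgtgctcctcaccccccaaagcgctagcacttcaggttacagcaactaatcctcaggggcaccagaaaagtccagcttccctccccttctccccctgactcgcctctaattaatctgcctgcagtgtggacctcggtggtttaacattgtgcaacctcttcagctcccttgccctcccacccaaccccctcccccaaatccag
The Has1 window of 233 bases held 1 CRE, 83 bases before the RefSeq start, and such a match was found in 1.55% of 32851 promoters of 250 bases. The Tnfaip6 window of 146 bases held 1 AP-1 match, present in 6.75% of promoters, and a STAT match (TTCTGAGAA, searched as TTCNNNGAA, 7.02% of promoters). The Ptx3 window of 250 bases held none of these motifs, and no NF-kB match (7.25% of promoters) was found in any of the 3 windows. Uap1 was likewise higher in the Ccl7 subtype and highest in the same 2 libraries, and its sequence is not printed. Its window of 250 bases held no CRE, AP-1, STAT or NF-kB match. All matches given are of letters in short windows, and binding was not measured.

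Has1 encodes the synthase that is rare in many adult tissues and that inflammatory cytokines induce in cultured fibroblasts (ENSMUSG00000003665, mm10 chromosome 17, 17843323 to 17855205, minus strand). Its level in fibroblast-like cells was 89.7, 84.9, 124, 384, 355 and 54.6 CPM in libraries 1 to 6, against 0.660, 0.912, 3.40, 11.0, 1.98 and 0.114 CPM in VSMC-like cells. The lowest fibroblast value was thus above the highest VSMC value, and the median log2 ratio within a library was 6.74 (5.12 to 8.32). A Has1 UMI was found in 14.0% of fibroblast-like cells thinned to 3000 UMIs (95% exact binomial interval 13.4% to 14.6%; 17.8% unthinned) and in 0.546% of VSMC-like cells (0.410% to 0.714%; 1.01% unthinned). Leukocyte-like cells, which should lack the gene and were taken as a measure of free RNA, were at 1.06% (0.289% to 2.69%; 1.58% unthinned). The VSMC-like share was not above theirs, at median depths of 7208 UMIs in VSMC-like, 5638 in leukocyte-like and 6112 in fibroblast-like cells. That measure is uneven, since 30 of the 31 leukocyte Has1 UMIs were in library 4, 25 of them in 1 cell, and 4 libraries held none. These intervals cover counting error alone. Has1 was concentrated in few cells, as the 1367 fibroblast-like cells with the most Has1, 10% of them, held 92.3% of its fibroblast UMIs. The 137 highest cells held 32.3%, with up to 126 UMIs in 1 cell.

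Has2, the synthase that the embryonic heart requires, was present at lower counts (ENSMUSG00000022367, chromosome 15, 56665627 to 56694539, minus strand, overlapped by Has2os on the other strand). It reached 12.9, 16.3, 14.8, 32.6, 34.1 and 9.34 CPM in fibroblast-like cells of libraries 1 to 6 and at most 1.23 CPM in VSMC-like cells, where it rested on 29 UMIs. The median log2 ratio was 6.20 (4.60 to 8.80), and the fibroblast values lay below those of Has1 in every library. Since VSMC-like cells of 2 libraries held no Has2 UMI, this ratio depended on small counts, and it was 5.05 without library 1, 5 or 6 and 7.35 without library 2, 3 or 4. Has3, the third synthase (ENSMUSG00000031910, chromosome 8, 106870242 to 106884566, plus strand), was near the limit of detection in every class. Its 73 UMIs were distributed as 51 in VSMC-like, 12 in fibroblast-like, 10 in endothelial and 0 in leukocyte-like cells. Summed over the libraries, VSMC-like cells held 0.628 CPM and fibroblast-like cells 0.129 CPM, a ratio of 4.85 with an exact interval of 2.55 to 9.99, and endothelial cells held 3.46 CPM. No thinned leukocyte-like cell held a Has3 UMI (0 of 378, which allows a share of up to 0.971%), and the VSMC share of 0.227% lay under that limit.

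Uap1 makes UDP-N-acetylglucosamine, a donor that hyaluronan shares with glycoproteins and other glycans, and it was the most abundant of the 10 genes (ENSMUSG00000026670, chromosome 1, 170141938 to 170174957, minus strand). It was at 215, 168, 331, 615, 688 and 118 CPM in fibroblast-like cells of libraries 1 to 6 and at 28.1, 23.0, 42.1, 53.0, 40.8 and 24.8 CPM in VSMC-like cells. The groups did not overlap, and the median log2 ratio was 2.95 (2.24 to 4.08). Endothelial cells held 60.0 to 127 CPM. After thinning, 39.5% of fibroblast-like cells (38.7% to 40.4%) held a Uap1 UMI, against 9.78% of VSMC-like (9.20% to 10.4%) and 10.3% of leukocyte-like cells (7.44% to 13.8%), so the VSMC share was not separated from that of leukocytes.

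Tnfaip6 (TSG-6) binds hyaluronan and transfers heavy chains of inter-alpha-inhibitor onto it, a step that cross-links the chains (ENSMUSG00000053475, chromosome 2, 52038009 to 52056686, plus strand). It was at 51.8, 54.7, 182, 421, 419 and 29.9 CPM in fibroblast-like cells of libraries 1 to 6, and at 3.04, 1.55, 5.14, 19.9, 3.96 and 0.682 CPM in VSMC-like cells. Its values did not overlap between the classes, and the median log2 ratio was 5.12 (4.08 to 6.71). Ptx3, a pentraxin that stabilizes the matrix of cross-linked hyaluronan and acts in innate immunity (ENSMUSG00000027832, chromosome 3, 66219910 to 66225805, plus strand, within Veph1 on the other strand), showed the same arrangement. Its fibroblast values were 28.8, 70.1, 81.3, 325, 275 and 42.0 CPM, its VSMC values 1.19, 4.47, 4.97, 14.6, 2.03 and 1.48 CPM, and the median log2 ratio was 4.52 (3.96 to 7.06). In both genes, as in Has1, library 4 had the highest VSMC value. Among thinned VSMC-like cells, 1.11% held a Tnfaip6 UMI and 0.979% a Ptx3 UMI. The leukocyte-like shares were 1.85% (0.748% to 3.78%) and 0.794% (0.164% to 2.30%). The VSMC share was thus lower for Tnfaip6 and slightly higher for Ptx3, and in both genes it lay within the leukocyte interval. In fibroblast-like cells the shares were 17.8% and 14.3%.

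Part of the VSMC signal of these genes lay in a subcluster of 159 VSMC-like cells led by Cygb, Clec3b and Pi16, of which Pi16 is a fibroblast marker. Of these cells, 79.2% were marked as doublets, barcodes that hold a pair of cells, and their median depth was 11490 UMIs. They held 63.7% of the VSMC Has1 UMIs, 43.7% of those of Ptx3 and 38.6% of those of Tnfaip6. Without the mixed subclusters, an alternative chosen after seeing the data, library 4 fell to 1.74 CPM for Has1, 10.4 CPM for Tnfaip6 and 4.56 CPM for Ptx3, and the median log2 ratio of Has1 over VSMC-like cells became 7.60 (7.39 for Has2).

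Hapln1, the link protein that fastens proteoglycans such as versican and aggrecan to hyaluronan (ENSMUSG00000021613, chromosome 13, 89539796 to 89611652, plus strand), was rare in both classes. Its fibroblast level was 4.40 to 7.48 CPM over the libraries and its VSMC level 0.182 to 1.25 CPM, from 516 and 48 UMIs, and the median log2 ratio was 3.35 (1.82 to 5.11). Cd44, the main hyaluronan receptor of leukocytes and many stromal cells (ENSMUSG00000005087, chromosome 2, 102811141 to 102901665, minus strand), hardly differed between the classes. It was at 39.4, 26.9, 44.0, 34.6, 41.5 and 29.1 CPM in fibroblast-like cells of libraries 1 to 6 and at 30.0, 23.3, 29.3, 30.3, 38.0 and 20.7 CPM in VSMC-like cells. The ranges overlapped, and although fibroblast-like cells were higher within each of the 6 libraries, the median log2 ratio was 0.30 (0.13 to 0.59). The 3' counts do not resolve the splice forms of Cd44. Leukocyte-like cells held the most, with 230, 57.8, 179, 89.1, 71.1 and 285 CPM in libraries 1 to 6, above the fibroblast-like cells of the same library in all 6.

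Hyal2, a hyaluronidase anchored to the cell surface that cuts long chains (ENSMUSG00000010047, chromosome 9, 107567945 to 107572779, plus strand), was highest in endothelial cells. It was at 49.6, 115, 83.2, 59.1 and 111 CPM in the endothelial cells of libraries 1 to 5, library 6 having too few, and at 7.53 to 9.91 CPM in fibroblast-like and 6.98 to 10.5 CPM in VSMC-like cells. The endothelial values thus lay above all others, with a median log2 ratio of 3.30 over fibroblast-like cells (2.70 to 3.86), and endothelial cells, 2.02% of all cells, held 12.7% of all Hyal2 UMIs. Hyal1, a lysosomal hyaluronidase (ENSMUSG00000010051, chromosome 9, 107576927 to 107581710, plus strand), was, with the scarce Has3, lower in fibroblast-like than in VSMC-like cells of every library. It was at 4.92, 6.14, 4.27, 4.71, 3.10 and 4.44 CPM in fibroblast-like and 10.2, 9.85, 10.1, 8.12, 6.79 and 8.29 CPM in VSMC-like cells, and the median log2 ratio was -0.97 (-1.24 to -0.68). A Hyal1 UMI was found in 2.47% of thinned VSMC-like (2.17% to 2.80%), 1.18% of fibroblast-like and 0.265% of leukocyte-like cells. Hyal1 overlaps Naa80 and Hyal3 on the same strand, so the share of its reads that the counting gave to each gene is uncertain.

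Fibroblast-like cells were clustered again with the 10 genes and a wider list of hyaluronan genes left out of the variable features. A subcluster took a gene name known from earlier results of these data where it matched, and otherwise the name of its leading genes. The Coch/Wif1/Prss35 subtype, named in the first way, was itself led by Cd74, H2-Eb1 and H2-Aa. The subtypes were Hhip/Dio2/Cpxm2 (4438 cells of 2 subclusters), Ccl7/Ccl2/Cxcl1 (3364), Dpp4/Emilin2/Smpd3 (1610), Pthlh/Cst6 (1132), Chad/Comp/Cilp2 (889), Igfbp3/Ptn/Gucy1a1 (881) and Coch/Wif1/Prss35 (811). A subcluster led by Myh11, Cnn1 and Acta2 (486 cells, 36.0% marked as doublets) and a further subcluster of 53 cells were left out of the order of subtypes. Ly6a, Spon2 and Ccl11, adventitial transcripts named after their values were seen, were highest in the Dpp4 subtype (2621, 164 and 388 CPM) and next in the Ccl7 subtype (1100, 128 and 116 CPM).

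The Ccl7 subtype, which also held the chemokine Cxcl1 at 2923 CPM, and the Dpp4 subtype had the highest median levels of Has1, Has2 and Uap1, and the Coch and Chad subtypes those of Hapln1, Cd44 and Ptx3. The Ccl7 subtype held 71.7% of all Has1 UMIs in 24.6% of the fibroblast-like cells, and the Dpp4 subtype 13.1%. Relative to all other fibroblast-like cells of the same library, Has1, Has2, Tnfaip6, Ptx3 and Uap1 were higher in the Ccl7 subtype in all 6 libraries and Hyal1 and Hapln1 lower in all 6. Of 8331 genes with at least 10 CPM, 11.6% were higher and 15.7% lower in all 6, and the 5 higher genes were among the 6 that passed this limit. Since the subtypes were drawn from correlated genes of the same cells, these directions are not a test.

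**Figure D2:**
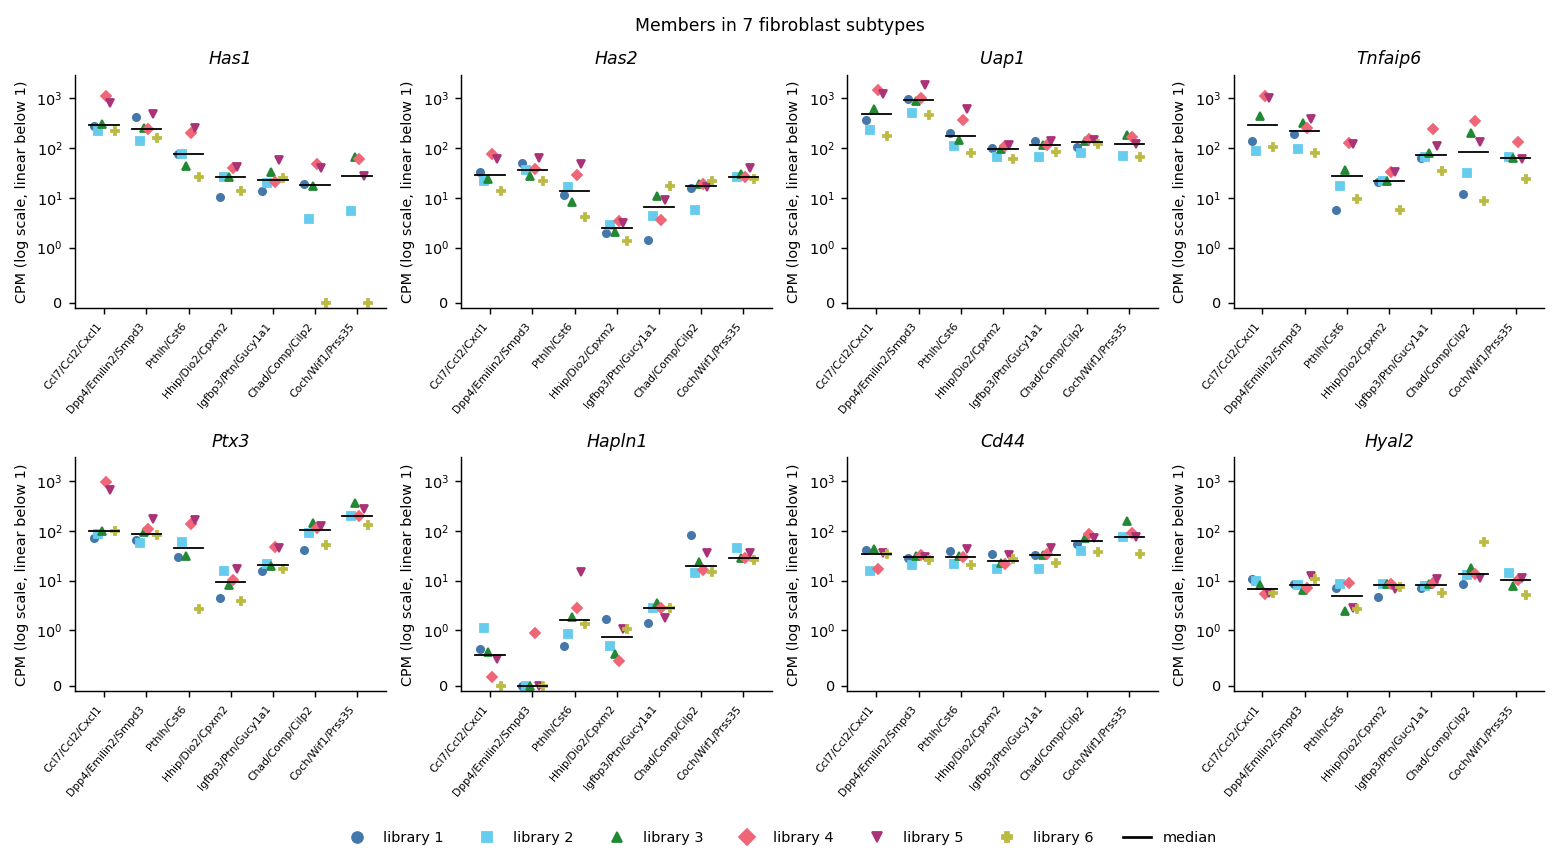
Level of each gene in CPM (vertical axis, logarithmic above 1 and linear below) in the 7 fibroblast subtypes (horizontal axis), with 1 point per library with at least 20 cells of the subtype and a bar at the median. Has1 and Uap1 were highest in the Ccl7 and Dpp4 subtypes (medians of 290 and 246 CPM, and of 485 and 914 CPM), and the Hapln1 medians were 28.6 CPM in the Coch, 19.9 CPM in the Chad and at most 2.81 CPM in the other subtypes.

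Has1 was at 277, 220, 303, 1122, 814 and 222 CPM in the Ccl7 subtype of libraries 1 to 6 and at 417, 136, 253, 239, 476 and 158 CPM in the Dpp4 subtype. The ranges overlapped, and the Ccl7 value was higher in 5 of 6 libraries (median log2 ratio 0.60, -0.59 to 2.23). The Pthlh subtype followed with a median of 77.2 CPM, below the Dpp4 subtype in 6 of 6 libraries, and the other 4 subtypes had medians from 18.1 to 28.0 CPM that did not keep an order over the libraries. Relative to all other fibroblast-like cells, the log2 ratio of Has1 was 2.43 in the Ccl7 subtype (2.11 to 3.69), and 3.12 when the UMIs of all libraries were summed first. After thinning, 33.5% of the Ccl7 subtype held a Has1 UMI (31.8% to 35.2%; 39.0% unthinned), against 25.1% of the Dpp4 subtype (22.8% to 27.6%; 31.4% unthinned), at median depths of 5894 and 5303 UMIs. By library, the thinned share was 23.0, 18.2, 26.8, 44.6, 37.4 and 15.4% in the Ccl7 subtype and 30.4, 16.9, 25.0, 22.8, 40.0 and 19.5% in the Dpp4 subtype, higher in the former in 3 of 6. Cells with Has1 held 6.87, 7.01, 6.29, 12.9, 11.3 and 8.47 UMIs of it on average in the Ccl7 subtype and 6.53, 4.46, 5.01, 4.14, 5.56 and 4.88 UMIs in the Dpp4 subtype, without thinning. The gap was widest in libraries 4 and 5.

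Has2 was spread over more subtypes than Has1. Its medians were 36.5 CPM in the Dpp4, 28.7 CPM in the Ccl7 and 26.2 CPM in the Coch subtype. The Dpp4 subtype was above the Ccl7 subtype in 5 of 6 libraries, whereas the Ccl7 subtype was above the Coch subtype in 2 of 5, so these neighbours were not separated. Has2 fell to 2.44 CPM in the Hhip subtype (1.33 to 3.46), the largest fibroblast subtype. The Coch subtype thus held Has2 at a level close to that of the Ccl7 subtype but Has1 at a median of 28.0 CPM, lower than the other fibroblast-like cells in all 5 libraries.

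Tnfaip6 was highest in the Ccl7 subtype, where it reached 136, 86.3, 435, 1096, 1022 and 106 CPM in libraries 1 to 6. The Dpp4 subtype held 193, 95.3, 313, 251, 385 and 80.9 CPM, and neither subtype was above the other in every library. The lowest median was 21.9 CPM in the Hhip subtype. Ptx3, in contrast, had its highest median in the Coch subtype, with 197, 363, 203, 280 and 134 CPM in libraries 2 to 6, library 1 having under 20 such cells. It was above the Chad subtype in 5 of 5 libraries (median log2 ratio 1.16, 0.81 to 1.38). The Chad median of 103 CPM was close to the Ccl7 median of 99.4 CPM. Chad was above Ccl7 in 2 of 6 libraries, so these neighbours were not separated. In the Ccl7 subtype Ptx3 was at 71.1, 84.9, 98.7, 939, 666 and 100.1 CPM, so that libraries 4 and 5 were above every Coch value and the other 4 libraries below every one. Its ratio over other fibroblast-like cells was 1.68 in the Ccl7 subtype (0.36 to 3.59) and 1.00 without libraries 4 and 5, an alternative also chosen after seeing the data.

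Hapln1 was low outside the Coch and Chad subtypes. It was at 45.4, 28.1, 28.6, 36.4 and 26.6 CPM in the Coch subtype of libraries 2 to 6 and at 81.3, 14.2, 23.6, 16.1, 35.5 and 14.9 CPM in the Chad subtype of libraries 1 to 6. In the 5 other subtypes the medians were at most 2.81 CPM, and the Dpp4 subtype held 2 UMIs in all. Coch was above Chad in 5 of 5 libraries, in 1 of them by a log2 ratio of 0.03. Cd44 followed the same pair of subtypes, with 75.6, 161, 89.9, 75.5 and 33.7 CPM in the Coch subtype of libraries 2 to 6 and 38.3 to 88.0 CPM in the Chad subtype. Relative to other fibroblast-like cells, its log2 ratio was 1.57 in the Coch subtype (0.24 to 2.17, 5 of 5 libraries) and 0.72 in the Chad subtype (0.42 to 1.60, 6 of 6), against -0.18 in the Ccl7 subtype (2 of 6 higher). Versican (Vcan), the proteoglycan that link protein can fasten to hyaluronan, had its highest fibroblast value of the 4 subtypes compared, 751 CPM, in the Coch subtype as well, against 171 CPM in the Chad, 258 CPM in the Ccl7 and 272 CPM in the Dpp4 subtype. Hyal1 and Hyal2 had medians of 2.32 to 7.23 CPM and 5.00 to 13.5 CPM over the 7 subtypes. Both had their highest median in the Chad subtype, above the other fibroblast-like cells in 6 of 6 libraries, with log2 ratios of 0.78 for Hyal1 (0.52 to 1.20) and 0.80 for Hyal2 (0.21 to 3.11). They rested on 60 Hyal1 and 126 Hyal2 UMIs in the Chad subtype. The share of all genes higher in the Coch or Chad subtype in every library is not given here.

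Uap1 was highest in the Dpp4 subtype, at 956, 511, 872, 993, 1863 and 464 CPM in libraries 1 to 6, and was there above the Ccl7 subtype in 5 of 6 libraries. The Ccl7 subtype held 370, 231, 601, 1477, 1192 and 174 CPM, and library 4 was the exception. The other 5 subtypes had medians from 97.8 to 173 CPM. The further genes of the donor pathways divided into those that moved with Uap1 and those that did not. Ugdh, which oxidizes UDP-glucose to UDP-glucuronic acid, had a median log2 ratio in the Dpp4 subtype over other fibroblast-like cells of 1.92. Gfpt2, a rate-limiting enzyme of the hexosamine pathway, was at 2.15 and Ugp2, which makes UDP-glucose, at 1.40. Gnpnat1, an acetyltransferase of the hexosamine pathway, was at 0.89. Ugdh, Gfpt2, Ugp2 and Gnpnat1 were each higher in 6 of 6 libraries, as was Uap1 at 1.97. The share of all genes higher in the Dpp4 subtype in every library is not given here, so these directions have no background beside them. Gfpt1, the paralogue of Gfpt2, had a ratio of 0.35 with 5 of 6 libraries higher. In the Ccl7 subtype, Gfpt2 (1.38), Ugp2 (0.82) and Ugdh (0.63) were also higher in 6 of 6 libraries, while Gfpt1 (0.04), Pgm3 (-0.06) and Gnpnat1 (-0.10) were mixed.

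**Figure D3:**
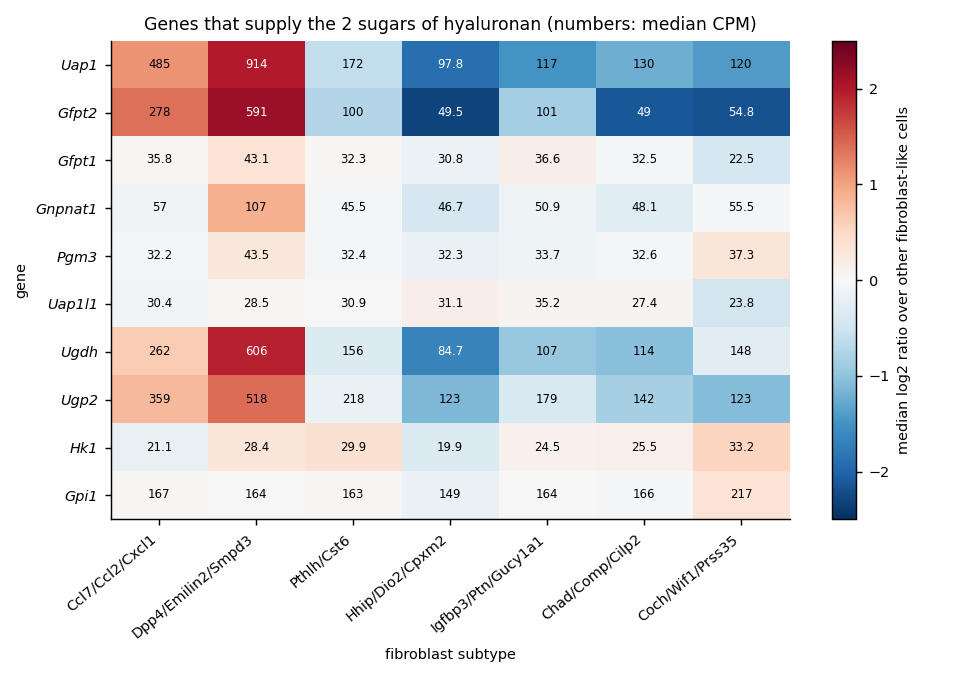
Genes that supply the sugar donors of hyaluronan (vertical axis) by fibroblast subtype (horizontal axis), coloured by the median over libraries of the log2 ratio over all other fibroblast-like cells of the same library, with the median CPM printed in each cell. Uap1, Ugdh, Ugp2 and Gfpt2 were highest in the Dpp4 subtype (914, 606, 518 and 591 CPM) and next in the Ccl7 subtype (485, 262, 359 and 278 CPM), while Gfpt1 differed little between subtypes.

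Among VSMC subtypes, Cd44 was the most abundant member besides Uap1. It was highest in the subtype led by Cd74, H2-Aa and H2-Eb1, genes of antigen presentation, at 56.4, 19.9, 46.4, 51.6 and 68.9 CPM in libraries 1 to 5. The log2 ratio over other VSMC-like cells was 0.81 (-0.24 to 0.95), and library 2 was the 1 library of 5 in which it was lower. The Pln/Pgam2/Olfr558 subtype followed at a median of 39.9 CPM and was above the other VSMC-like cells in 6 of 6 libraries (0.58, 0.10 to 0.83), and the Rgs5/Prrx2/Sfrp2 subtype was lowest at 22.1 CPM. Hyal1 was lower in the Pln subtype than in other VSMC-like cells in 6 of 6 libraries, with a median of 5.78 CPM and a log2 ratio of -0.67, and had medians of 8.06 to 10.9 CPM in the other 5 subtypes. The share of all genes higher or lower in the Pln subtype in every library is not given here. Has1, Has2, Tnfaip6 and Ptx3 were too few in the VSMC subtypes for an order, with 19, 4, 137 and 30 UMIs in the Pln subtype.

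The 5 genes of the Ccl7 subtype differed widely between libraries. In fibroblast-like cells, the highest library was 7.02 times the lowest for Has1, 14.1 times for Tnfaip6, 11.3 times for Ptx3, 5.85 times for Uap1 and 3.64 times for Has2. The corresponding factor for Cd44 was 1.64. The first 4 exceeded 4 times, as did 1.22% of 8110 genes with a median of at least 10 CPM. When the subtypes were given equal weight, 2 of the genes exceeded it, Tnfaip6 at 8.33 and Ptx3 at 5.86 times, and Has1 was at 3.89 times. Libraries 4 and 5 held the highest values of all 5 genes, and library 6 the lowest of Has1, Has2, Tnfaip6 and Uap1. Hyal1, Hyal2 and Hapln1 varied by factors of 1.96, 1.31 and 1.70. In VSMC-like cells, where 1.04% of 7671 genes exceeded 4 times, Uap1 varied by a factor of 2.30 and Cd44 by 1.84.

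Libraries 4 and 5 also had more Ccl7 cells, which made up 16.1, 21.6, 21.6, 29.4, 32.5 and 15.2% of the fibroblast-like cells of libraries 1 to 6. The differences between libraries were also present within the Ccl7 subtype, where the factor was 5.09 for Has1, 12.7 for Tnfaip6, 13.1 for Ptx3, 8.47 for Uap1 and 5.22 for Has2, and 2.21% of 7923 genes reached 4. In the Dpp4 subtype the factors were lower, at 3.50 for Has1, 4.72 for Tnfaip6, 2.93 for Ptx3 and 4.01 for Uap1, and library 5 was the highest for each. The summed levels of inflammation and dissociation genes are given beside these values. The share of UMIs taken by 14 inflammation genes, led by Cxcl1, Nfkbia and Vcam1, was 0.229, 0.199, 0.417, 0.643, 0.805 and 0.275% in fibroblast-like cells of libraries 1 to 6, and that of 23 dissociation genes, led by Fos, Junb and Hspa8, 2.58, 2.20, 2.75, 2.99, 3.41 and 2.32%. Both shares were highest in libraries 4 and 5. Within the Ccl7 subtype the inflammation share was again highest there, at 1.36 and 1.49%, while the dissociation share was 3.59, 2.51, 3.16, 3.25, 3.71 and 3.04%, with library 1 above library 4. Digestion lasted 30 minutes or 1 hour, the time of each mouse is not given, and which library came from an LDS mouse is not known. The part of digestion, genotype and mouse in these differences was not tested.

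**Figure D4:**
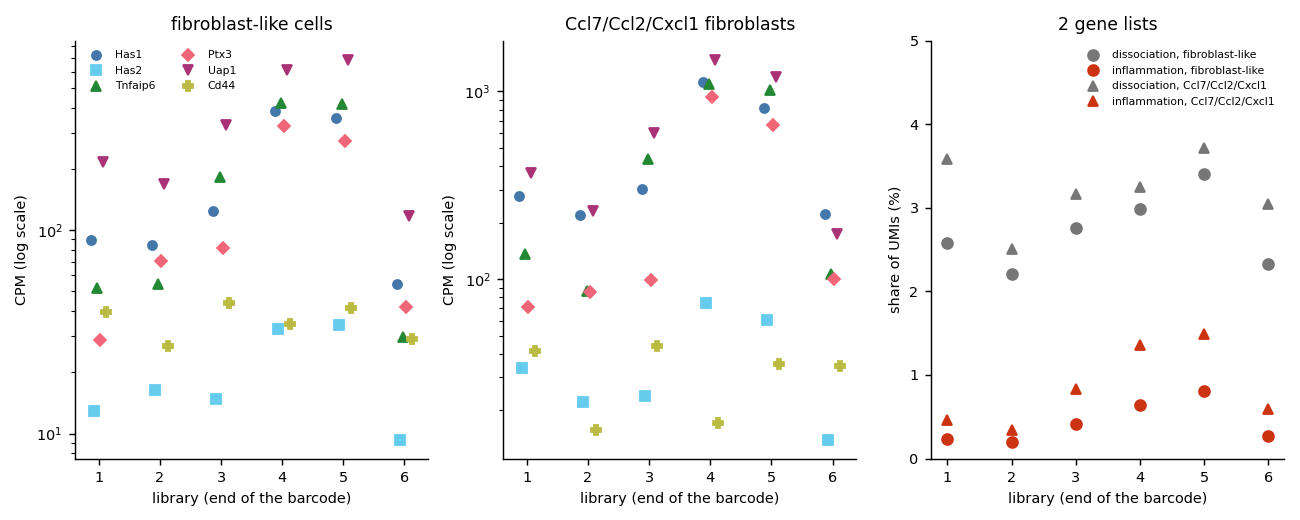
Level in CPM (vertical axis, logarithmic) of the 5 genes that varied most and of Cd44 in libraries 1 to 6 (horizontal axis), in fibroblast-like cells and within the Ccl7 subtype, beside the share of UMIs (%) of the dissociation and inflammation lists. Has1, Has2, Tnfaip6, Ptx3 and Uap1 had their highest values in libraries 4 and 5, where the inflammation share was 0.643 and 0.805% of the UMIs of fibroblast-like cells, and Cd44 stayed between 26.9 and 44.0 CPM in these cells.

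Among fibroblast-like cells, the same genes were found in the same cells more often than their separate shares would give. Fibroblast-like cells of at least 3000 UMIs were thinned to that number, and the expected count was computed within each subtype of each library. Has1 and Tnfaip6 were found together in 725 cells, against 532 expected (ratio 1.36, 1.29 to 1.57 over libraries). Has1 and Ptx3 shared 631 cells against 432 (1.46), Has1 and Has2 232 against 160 (1.45), and Has1 and Uap1 1315 against 1029 (1.28). Of the 10 pairs of these 5 genes, 9 had a ratio above 1 in all 6 libraries, the exception being Has2 with Tnfaip6 (1.44, above 1 in 5 of 6). No share over pairs of genes outside the members is given here, so how common such an excess is in fibroblast-like cells is not known. Pairs of one of the 5 with the receptor or a hyaluronidase lay on both sides of 1. Has1 and Cd44 were together in 127 cells against 135 (0.941, above 1 in 2 of 6 libraries) and Has1 and Hyal2 in 26 against 38.9 (above 1 in 0 of 6). Ptx3 and Cd44 shared 219 cells against 190 (1.15) and Uap1 and Hyal2 121 against 114 (1.06), both above 1 in 5 of 6. Has2 and Hyal1 were together in 13 cells, 2.17 times the expected number, above 1 in 3 of 6.

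Cells of the Ccl7 subtype with a Has1 UMI held a median over libraries of 0.976% of their UMIs in the inflammation list, against 0.615% in cells without one, higher in 6 of 6 libraries. The dissociation list took 3.35% and 3.40%, higher in 3 of 6. In the Dpp4 subtype, cells with Has1 had the higher share of both lists in 5 of 5 libraries, at 0.293% against 0.238% for inflammation and 2.83% against 2.38% for dissociation. Cells with Tnfaip6 in the Ccl7 subtype had the higher inflammation share in 5 of 5 libraries and the higher dissociation share in 3 of 5. In the Dpp4 subtype this was so in 5 of 5 and 4 of 5. For Ptx3 the inflammation and dissociation shares were higher in 4 of 5 and 1 of 5 libraries in the Ccl7 subtype, and in 4 of 4 and 3 of 4 in the Dpp4 subtype. For Has2 they were higher in 3 of 4 and 0 of 4 in the Ccl7 subtype, and in 3 of 4 and 2 of 4 in the Dpp4 subtype.

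**Figure D5:**
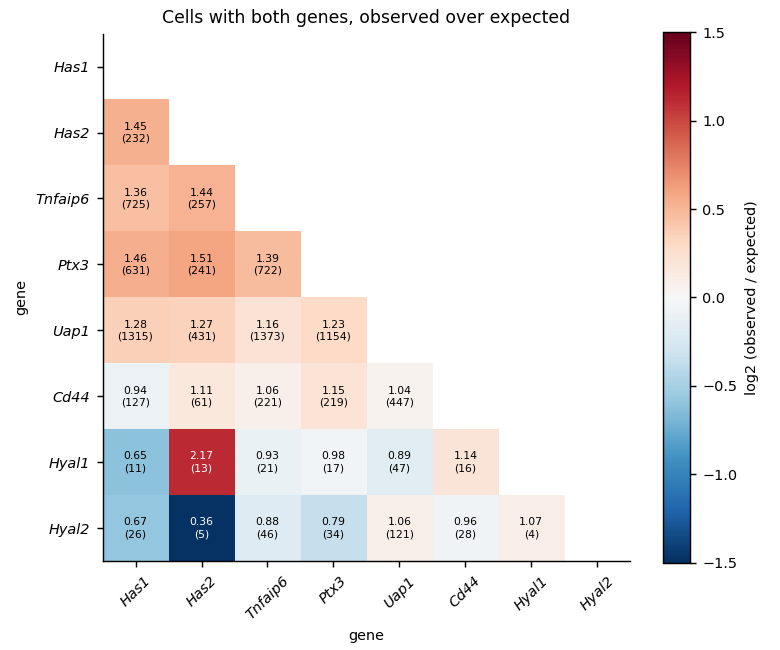
Fibroblast-like cells with both of 2 genes, as the log2 of the observed over the expected number (colour), for pairs of 8 of the genes (both axes), at 3000 UMIs per cell, with the ratio and, in brackets, the observed cells printed. Pairs among Has1, Has2, Tnfaip6, Ptx3 and Uap1 lay between 1.16 and 1.51 times the expected count, while the pair of Has1 and Hyal2 lay at 0.669 times.

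The level of each member was set beside that of 11571 genes over 121 profiles, each 1 class or subtype in 1 library, as the Pearson r of log2 CPM. The profiles share libraries, depth and cell classes, so r describes these profiles alone. The genes most like Has1 were Gfpt2 (0.88), Clec3b (0.85), Ugdh (0.85) and Uap1 (0.84). The members were often among each other's closest genes, as Ptx3 was at rank 2 for Has2 and Has2 at rank 2 for Ptx3 (0.89), Tnfaip6 at rank 4 for Uap1 (0.85) and at rank 6 for Has1 (0.84). For Uap1, the donor enzymes Ugdh (0.92) and Gfpt2 (0.88) came first, and Gfpt2 also led for Tnfaip6 (0.90). Bmper, an extracellular modulator of BMP signaling, led for both Has2 and Ptx3 (0.91). The nearest genes to Hyal2 were the endothelial Podxl (0.87), Cldn5 (0.87), She (0.86) and Robo4 (0.86), those to Cd44 were Rnf149 (0.78), Ptk2b (0.75), Sirpb1c (0.72) and Cd53 (0.72), and those to Hapln1 were Cldn11 (0.74), Fzd9 (0.73), Dupd1 (0.71) and Sall3 (0.69). Hyal1 had no close neighbour, the highest r being 0.64 with Ptpn11.

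A list of 51 further genes of hyaluronan supply, breakdown, reception and matrix partnership gives the surroundings of the 10. Of these, 50 were features and 27 had at least 10 CPM in fibroblast-like or VSMC-like cells, of which 17 were higher and 8 lower in fibroblast-like cells in all 6 libraries, beside 38.1% and 34.6% of all genes, with a median log2 ratio of 0.38 against 0.02 over all genes. In the Ccl7 subtype over other fibroblast-like cells, 24 passed, 3 of them higher (Ugdh, Ugp2 and Gfpt2) and 5 lower in all 6 libraries (among them Hk1, Hexa, Itih4 and Bgn), beside 11.6% and 15.7% of all genes. The VSMC-like cells held partners of their own. Susd5, which carries a hyaluronan-binding link domain, had a median of 234 CPM in VSMC-like cells against 6.02 CPM in fibroblasts, and Itih4, an inter-alpha-inhibitor heavy chain family member, at 185 and 10.2 CPM. Gfpt2 lay the other way, at 160 CPM in fibroblast-like and 3.16 CPM in VSMC-like cells. Hexa, a lysosomal enzyme that removes sugars from fragments of the chain, was at 255 CPM in fibroblast-like and 85.6 CPM in VSMC-like cells.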

How the data were processed

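Single-cell suspensions from 6 mice were sequenced as 10x Genomics 3' v3 libraries. The authors deposited 1 matrix of UMI counts, 31055 features by 30716 barcodes, aligned to mm10 with Cell Ranger version 6 per the labels, while its header names 4.0.0. The counts are not normalized, and equalization of depth between libraries at aggregation is not given in the sources used here. Libraries were told apart by the barcode number, which was tied to no genotype, and 0 columns of per-sample values were left unused.

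Cells with 1000 genes or fewer, 5000 or more, 1500 UMIs or fewer, 25000 or more, or a mitochondrial share of 20% or more were removed. With Seurat 5.3.0 on R 4.3.3 (sctransform 0.4.2, SeuratObject 5.2.0), libraries were normalized with SCTransform v2 (3000 variable genes), integrated by RPCA over 30 components and clustered at a resolution of 0.25, without the members and the wider hyaluronan list among the variable features. Classes were named from marker lists. Subtypes took gene names from earlier results of these data where they matched, and otherwise their leading genes. A subtype's value in a library needed at least 20 cells. UMIs were summed per group and library, and 0.5 UMI, in proportion to the totals, was added before log2 ratios. Fold changes of genes with few UMIs depend on that prior. Shares of cells were computed after thinning to 3000 UMIs (22935 cells, 2037 shallower cells left out), with exact binomial intervals (scipy 1.17.1, numpy 2.4.6, Python 3.11.15). Doublets were marked by scrublet (scanpy 1.11.5) per library or, in libraries where it marked under 0.5% of the cells, as the 5% with the highest score, and were kept in the reported values. The ratios and the thinning were tested on simulated data.

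Members and gene lists were chosen with earlier results of these data known, and the lists of dissociation and inflammation genes were taken from an earlier analysis of them. Named genes are the 10 members, the 12 genes of the wider list with the highest level in a class, the 4 genes most like each member with at least 10 CPM in a class or subtype, at most 3 genes of the dissociation and inflammation lists and at most 5 genes that lead a cluster. Other genes of the wider list, among them Gnpnat1, Gfpt1, Pgm3 and Hk1, were named after their values were seen. Coordinates are those of mm10, 1-based. Some items of the lists are not reported here. Alternatives were TMM factors (edgeR 4.0.16), another prior, sums over all libraries, each library left out, doublets removed, under 10% mitochondrial UMIs, low dissociation share, thinning, log-normalized clustering, members kept in the clustering and resolutions of 0.1 and 0.5.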

Additional observations from a re-analysis of the deposited data

Results flagged for a closer look

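In VSMC-like cells, library 4 stood far above the 5 other libraries for 3 of the genes. Has1 was at 11.0 CPM in library 4 and at 0.114 to 3.40 CPM in the others. Tnfaip6 was at 19.9 CPM in library 4 against 0.682 to 5.14 CPM, and Ptx3 at 14.6 CPM against 1.19 to 4.97 CPM. In each case the gap to the next library, divided by the whole range, was above the 95% critical value of Dixon's ratio for 6 values. Of 20 pairs of a gene and a class, 3 were past that value, and chance passes about 1 in 20. Without the mixed subclusters, an alternative chosen after seeing the data, library 4 was at 1.74 CPM for Has1, next to library 5 at 1.71 CPM, and at 4.56 CPM for Ptx3, next to library 2 at 3.99 CPM. Tnfaip6 fell to 10.4 CPM, with the other libraries at 0.687 to 3.11 CPM. Of its UMIs in library 4, 99 were in the Pln subtype, 58 of them in 1 cell. With the cells marked as doublets removed instead, library 4 was at 4.84 CPM for Has1, 10.9 CPM for Tnfaip6 and 4.43 CPM for Ptx3.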

How the results depend on the processing

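No member ratio that had 1 direction in every library changed its direction under the alternatives run. Changes of sign in ratios that were mixed over the libraries were not counted. The 7 genes higher in fibroblast-like than in VSMC-like cells in all 6 libraries numbered 7 under every alternative run, and the 5 higher in the Ccl7 subtype numbered 4 or 5. The log2 ratio of Cd44 in the Cd74 subtype of VSMC-like cells was 0.69 to 0.99 over the alternatives and 0.76 to 0.85 with each library left out in turn. Of 470 values of single members under these alternatives, 442 stayed within a limit and 28 moved past it. The limit was the standard deviation over libraries for ratios, the exact interval for shares of cells and a set factor for the highest over the lowest library. Clustering of log-normalized counts, which put the cells of the Ccl7 and Dpp4 subtypes in 1 matching subcluster, raised the Has1 ratio over other fibroblast-like cells to 3.47 and that of Uap1 to 2.70. Without thinning, the share of the Ccl7 subtype with a Has1 UMI was 39.0% in place of 33.5%. The number of members whose highest library was at least 4 times the lowest was 4, and 2 when the subtypes had equal weight, where the factor was 3.89 for Has1, 8.33 for Tnfaip6 and 5.86 for Ptx3. With cells under a common limit of the dissociation share, it was 17.6 for Has1, 25.9 for Tnfaip6 and 24.8 for Ptx3. Of the 36 genes most like a member, 15 were shared with Spearman in place of Pearson and 5 over fibroblast subtypes alone. Wider list counts ranged from 15 to 24 around 17. No paired analysis was possible because the libraries carry no replicate number or group. The cause of these changes was not tested. Depth limits Has3 (73 UMIs) and Hapln1 (644 UMIs).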

Other observations

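Hapln1 was found in endothelial cells of few libraries. Of its 79 endothelial UMIs, 70 were in the lymphatic cells of library 3, where 16 of 58 cells held it, with up to 28 UMIs in 1 cell (155 CPM). The 79 lymphatic cells of library 4 held none, and no blood vessel endothelial cell of any library held a Hapln1 UMI. Lyve1, the hyaluronan receptor of lymphatic endothelium, was at 1024 CPM in the lymphatic cells. It ranked next after the 12 genes of the wider list named by level, and was named after its value was seen. Hyal2 was at 95.2 and 59.4 CPM in the lymphatic cells of libraries 3 and 4, against 63.9 and 59.1 CPM in the blood vessel endothelium of the same libraries.

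Among leukocyte-like cells, Cd44 was at 57.8 to 233 CPM in macrophages over the 6 libraries. A cluster led by S100a9 and Il1b, present with at least 20 cells in library 6 alone (36 cells), held 737 CPM, and 32 of its 36 cells had a Cd44 UMI.

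The added feature GFP, the transcript of the lineage reporter, had 263, 201, 157, 258, 8 and 6 UMIs in libraries 1 to 6, although the labels list the reporter in 2 mice. It was not used to assign a library to a mouse.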
